A study of Mus musculus with 17 samples.

Results

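The 37 genes described here carry out or control the burning of fatty acids in liver: they activate fatty acids, move them into mitochondria, shorten them in mitochondria and peroxisomes, pass on the electrons and feed ketone body synthesis. They were taken by symbol from a list of mitochondrial and peroxisomal beta-oxidation, ketogenesis and PPAR-alpha target genes. No cut on a measured value was used, but the list was chosen with earlier results of these data known. All 37 were found among the 52545 gene IDs of the deposited table. All 37 passed the filter on low values and were tested, and no value of any of them was 0 in any library, the lowest being 19.97 for Acot3.

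The livers came from male C57BL/6J mice aged 32 weeks, and only tissue without tumour was sequenced, as 17 libraries of total RNA. The Regular diet group (n = 5) received no treatment. The Vehicle Control group (n = 6) had been given 100 mg/kg of DEN, a liver carcinogen, once in week 1, was kept on CDA-HFD, a high-fat diet deficient in choline, and had PBS injected intraperitoneally once per week for 16 weeks. The CLDN1 mAb group (n = 6) shared carcinogen, diet and schedule, but each weekly dose was 500 µg of a monoclonal antibody to CLDN1, a membrane protein of tight junctions. Carcinogen, diet and injections came together and cannot be told apart in a comparison with Regular diet, and no group analysed here received another antibody. The comparison of vehicle with regular diet livers asks how the disease model changes fat burning, and that of antibody with vehicle livers asks what the antibody changes in the model.

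In background terms, a long-chain fatty acid is first joined to coenzyme A, then handed to carnitine by CPT1 at the outer mitochondrial membrane, carried across, and handed back to coenzyme A by CPT2. Inside, repeated rounds of dehydrogenation, hydration, a second dehydrogenation and thiolysis release acetyl-CoA, which fasting liver turns into ketone bodies, while peroxisomes shorten very long, branched and dicarboxylic chains. PPAR-alpha, a nuclear receptor that binds fatty acids, switches on many of these genes when it pairs with a retinoid X receptor on 2 hexamers spaced 1 base apart, an arrangement called DR1.

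The starts of the genes were searched for that arrangement, to show which members carry such letters close to an annotated start. RefSeq (GRCm38.p6) gave windows of 300 bases, 250 before and 50 after an annotated start, for 32 of the 37 members and for 27025 genes in all. Some genes had more than 1 start, so these 32 members had 37 windows. The arrangement of 2 copies of AGGTCA with 1 base between them, on either strand and with at most 2 mismatches in the 12 fixed bases, was present in 5 of 32 members (15.6%), against 4.40% of all genes. Counted by window it was 5 of 37 (13.5%), against 3.86%. The sites are written 5′ to 3′ on the strand that holds the match, with both hexamers in capitals and the spacer base in lower case.
Creb3l3 (chr10:81092788-81092800): AGGGGAgAGGTCA
Slc25a20 (chr9:108662142-108662154): AGGTGAaAGGTCG
Etfa (chr9:55512308-55512320): AGGGCAaAGGTAA
Acox2 (chr14:8258818-8258830): AGGACAgAGGTGA
Acot4 (chr12:84038366-84038378): CGGCCAaAGGTCA
The Creb3l3, Slc25a20 and Acox2 sites lay on the strand of the gene and the others on the opposite strand, and each carried 2 mismatches. The Creb3l3 site began at -209 from a second start that lies inside the gene (chr10:81084324-81098874, minus strand). The window at the outer start of Creb3l3 held no such site. The Slc25a20 and Acox2 sites began 7 and 10 bases after a start. An exact match was present in 0 of 32 members and in 13 of all genes (0.0481%). A single AGGTCA, which the arrangement contains, was present in 6 of 32 members (18.8%) and in 18.1% of all genes. TGACGT, the core of cAMP response elements, was present in 1 member, Ehhadh (3.13%), and in 8.37% of all genes. These are matches of letters in a short window, not measured binding.

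Acot1 and Acot2 are neighbours on chromosome 12 (GRCm38, plus strand, chr12:83987861-83993873 for Acot2 and chr12:84009490-84018371 for Acot1), and their values differed from regular diet in opposite directions, as given further on. The 250 bases before each start (chr12:84009252-84009501 for Acot1 and chr12:83987611-83987860 for Acot2, plus strand) are shown in full because the genes are close copies. No letter is capital, since none of these motifs was found in them.
Acot1: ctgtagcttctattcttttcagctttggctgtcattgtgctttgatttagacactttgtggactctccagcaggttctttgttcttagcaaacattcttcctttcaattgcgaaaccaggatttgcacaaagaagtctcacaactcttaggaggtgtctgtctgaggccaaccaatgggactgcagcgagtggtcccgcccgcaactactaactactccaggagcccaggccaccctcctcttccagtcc
Acot2: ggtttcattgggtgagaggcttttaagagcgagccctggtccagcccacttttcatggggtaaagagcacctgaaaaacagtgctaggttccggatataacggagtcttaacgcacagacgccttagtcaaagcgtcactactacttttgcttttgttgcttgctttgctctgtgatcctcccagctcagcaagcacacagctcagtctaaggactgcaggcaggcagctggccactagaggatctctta
In a global alignment these windows were identical at 48.0% of 227 aligned bases. The longest open reading frames of the transcripts were identical at 95.5% of 1239 aligned bases, and 30.9% of the 100-base windows of Acot1 also occurred unchanged in Acot2 transcripts. For Acaa1a and Acaa1b the reading frames were identical at 96.5%, with 24.1% of windows shared, for Acot3 and Acot4 at 74.2% and for Cpt1a and Cpt1b at 66.8%. How fragments shared by such copies had been counted was not given in the sources used here, so the values of Acot1, Acot2, Acaa1a and Acaa1b are uncertain to that extent.

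Values are cuffnorm-normalized counts, the library values deposited by the authors, and every fold change is a difference on the log2(value + 1) scale from one limma-trend fit over 17 libraries, with its standard error and a p adjusted by Benjamini-Hochberg over the 18624 genes tested. A gene is called when that p is under 0.05. The titles number the libraries of a group without saying that each is a separate mouse, so p-values cover the spread between these libraries only, which may be technical. Where single livers are counted or compared in the text, a liver stands for 1 library. Deposited totals ranged from 29.7 M to 74.6 M (M, mega) and the fragments estimated from the step between low values from 27.7 M to 59.5 M. Regular diet replicate 1 stood apart: it had the highest total, at 74.6 M where the other 4 had 48.2 M to 51.2 M. Its deviation from the mean of all 17 libraries ran against transcript length across genes (Spearman -0.29). The other 4 Regular diet libraries gave 0.04 to 0.07. CLDN1 mAb replicates 1 and 3 (-0.23 and -0.19) and Vehicle Control replicate 2 (-0.15) also ran against length. Values without Regular diet replicate 1 are given beside the results where it was an outlying liver or changed a call.

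In vehicle livers most of these genes were lower than in regular diet livers, and 3 were higher. Of 37 members, 25 were called lower, against 20.7% of all genes tested, and 3 were called higher, against 29.8%, while 9 did not pass. The same shares stand beside the counts per role given below. The median difference over the members was -0.78 on the log2 scale, against 0.04 over all genes. In 16 members every vehicle liver stood below every regular diet liver, against 10.5% of all genes, and in 2 every vehicle liver stood above, against 19.1%. Without Regular diet replicate 1 the calls were 24 lower and 3 higher. Weighting libraries by an estimated quality gave 29 lower and 3 higher, beside 32.4% and 38.4% of all genes.

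**Figure D1:**
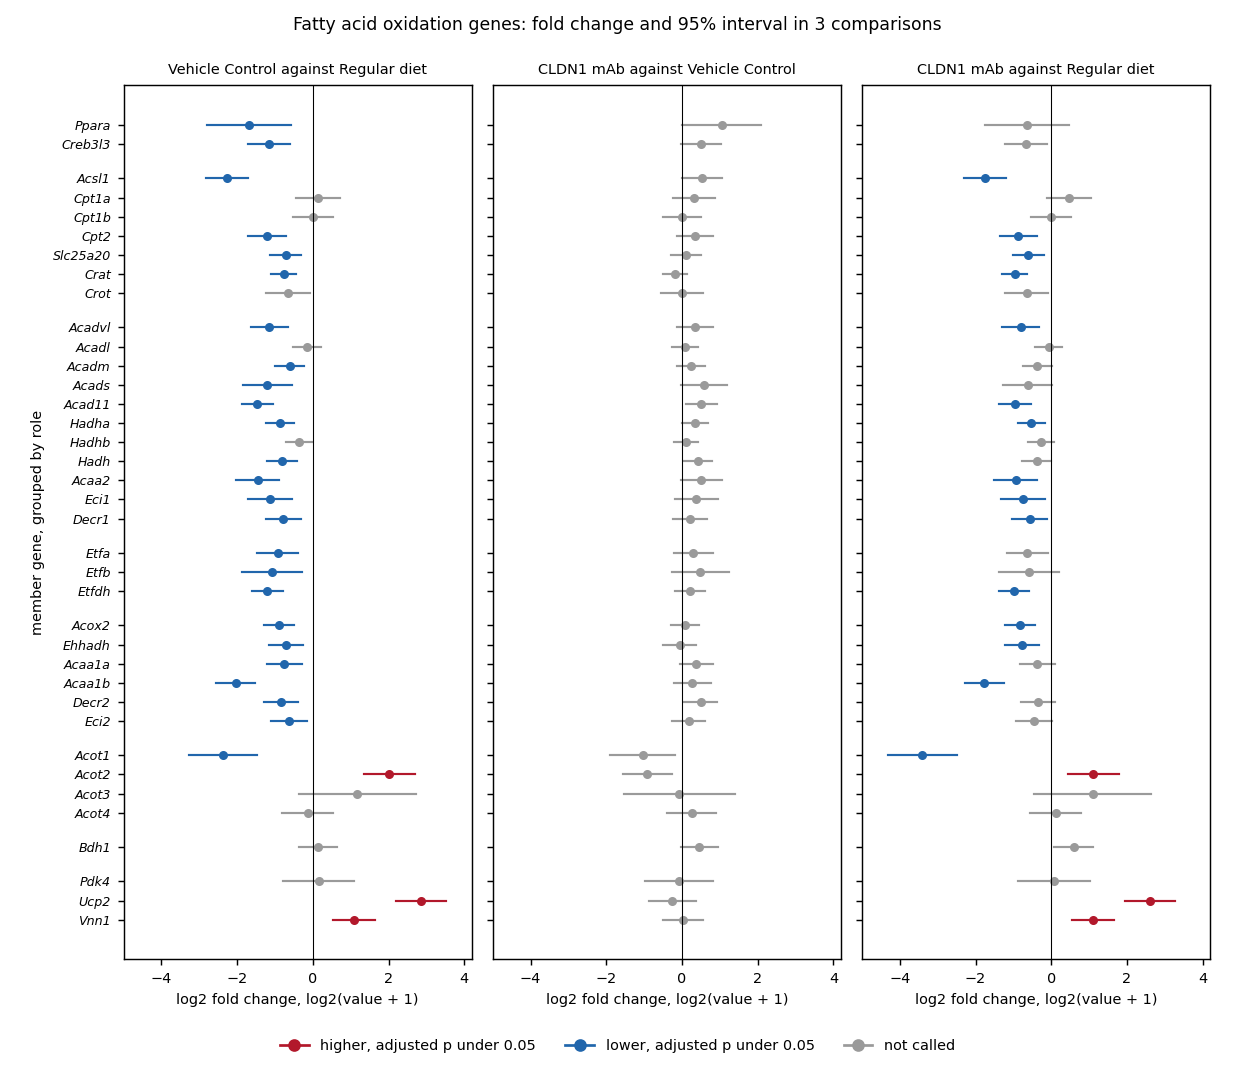
Log2 fold changes of the 37 genes (x axis, log2(value + 1) scale) with 95% intervals in 3 comparisons, ordered by role from regulators at the top to PPAR-alpha targets at the bottom. Against Regular diet, 25 members were lower and 3 higher in vehicle livers and 15 lower and 3 higher in antibody livers, whereas in antibody against vehicle livers every point is grey.

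The count of lower members depended on how libraries were put on a common scale. Regular diet libraries had the highest deposited totals, and setting each library to the same total moved the median of all genes from 0.04 to 0.65 and left 10 members lower and 7 higher, beside 6.79% and 50.3% of all genes. Quantile normalization left 11 lower and 6 higher, beside 28% and 23.9%. The median of the members was then -0.16 and -0.24. Under the deposited scaling and both others, 9 members were called lower (Creb3l3, Acsl1, Cpt2, Acad11, Acaa2, Eci1, Etfdh, Acaa1b and Acot1) and 3 higher (Acot2, Ucp2 and Vnn1). The share of all genes called under all 3 scalings was not computed, so these counts have no background beside them.

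Cell type markers differed between the groups. Alb was listed at 0 in all 17 libraries and Trf in 4 (3 vehicle and 1 antibody), which can be failed estimates. Of the 12 hepatocyte markers above 0 in every library, such as Apoa1, Ttr and Cps1, 10 were lower in vehicle livers, with a median of -1.49. Their summed level was 651027 to 2644420 in vehicle livers and 2455320 to 5613200 in regular diet livers, ranges that overlapped. Of 10 macrophage markers 9 were higher (median 3.94, summed level 60652 to 254354 against 4939 to 16190), and so were 6 of 6 cholangiocyte markers (4.06), 6 of 8 stellate cell and fibroblast markers (2.11) and 5 of 6 T cell markers (2.37). Of 6 endothelial markers 1 was called lower and 5 had negative values (median -0.68). With quantile normalization 6 of 13 hepatocyte markers, Trf included, were lower and 2 higher. Adipocyte and muscle markers summed to at most 284 and 734 in any library. In bulk tissue, fewer hepatocytes and less of an RNA per hepatocyte cannot be told apart, and the part of cell makeup in the results was not tested.

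**Figure D2:**
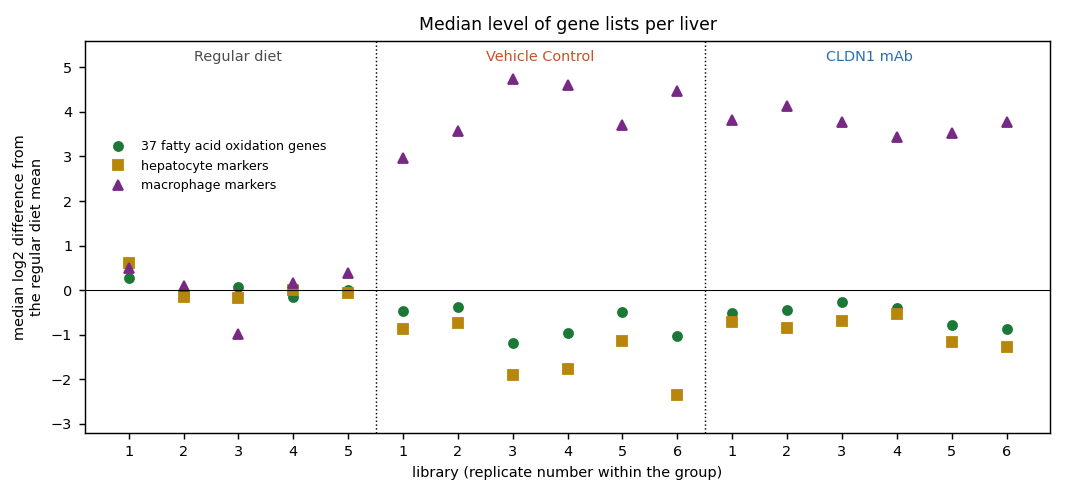
For each liver (x axis, replicate number within its group), the median over a gene list of the log2 difference from the regular diet mean (y axis). The 37 genes ran from -1.19 to -0.38 in vehicle and from -0.88 to -0.28 in antibody livers, with hepatocyte markers (13, Trf included) at or below them in each of these 12 livers and macrophage markers far above.

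Both regulators were lower in vehicle livers. Ppara, which encodes PPAR-alpha itself, measured 759, 4976, 4865, 4047 and 5669 in the regular diet livers, 703 to 2003 (median 859.8) in vehicle livers and 595 to 4261 (median 2706) in antibody livers. Regular diet replicate 1, at 759, lay among the vehicle livers, while the other 4 lay above all of them. The fold change was -1.69 ± 0.52 (adjusted p = 0.0121), and without that library -2.23. On the same total per library Ppara was not called (adjusted p = 0.135). Creb3l3, a liver transcription factor that is released from the endoplasmic reticulum and acts with PPAR-alpha in fasting, measured 42293, 13408, 16207, 14669.5 and 17455 on regular diet and 6716 to 12119 (median 7445) in vehicle livers. The groups did not overlap, and the fold change was -1.16 ± 0.26 (adjusted p = 0.00129), or -0.86 without replicate 1 of regular diet. Antibody livers lay at 9878 to 14898 (median 11872) for Creb3l3.

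Of 7 genes of activation and carnitine transfer, 4 were lower in vehicle livers and 3 did not pass. Acsl1, the main long-chain acyl-CoA synthetase of liver, showed the largest difference of the group. It measured 34920.5, 52488, 72153, 52473 and 57468 on regular diet, 7081 to 16504 (median 10986) with vehicle and 11160.5 to 20429 (median 16763) with antibody. The lowest regular diet liver was above the highest of both other groups, and the fold change was -2.27 ± 0.26 in vehicle (adjusted p = 1.67e-06) and -1.76 ± 0.26 in antibody livers (adjusted p = 4.06e-05), each against regular diet. Cpt2, the inner carnitine palmitoyltransferase, measured 13735, 7692, 10028, 8489 and 9099 on regular diet and 2812 to 6179 (median 4069.6) with vehicle, again without overlap (-1.22 ± 0.24, adjusted p = 0.000338). Crat, the acetyltransferase for short chains, measured 4127, 3489.6, 3434, 3201 and 3387 on regular diet, 1336 to 2668 (median 2057) with vehicle and 1606 to 2118 (median 1764) with antibody. It was lower in both groups (-0.77 ± 0.16 and -0.96 ± 0.16). Slc25a20, the carrier of acylcarnitines through the inner membrane, was lower by a smaller amount (-0.72 ± 0.19, adjusted p = 0.00491).

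Cpt1a, the liver form of the outer transferase and the step at which malonyl-CoA limits oxidation, did not follow Acsl1 and Cpt2. It measured 7596, 18617, 18182, 18869.5 and 21986 on regular diet, 11143 to 23808 (median 19569) with vehicle and 13713 to 28058 (median 22859.5) with antibody. Regular diet replicate 1, at 7596, was the lowest liver of all, and the other 4 lay within the range of the vehicle livers. The fold change in vehicle livers was 0.14 ± 0.28 (95% interval -0.45 to 0.72, adjusted p = 0.711), and without that library -0.13. Under both other scalings Cpt1a was called higher (0.76 and 0.89). Cpt1b, the muscle form, was low throughout (201 ± 73.3, 193 ± 27.7 and 199 ± 60.7; mean ± SD, n = 5, 6 and 6) and not called as deposited, but called higher in vehicle livers with the same total per library (0.62). Crot, the peroxisomal octanoyltransferase, missed the threshold (-0.65 ± 0.28, adjusted p = 0.0571). It was called lower without Regular diet replicate 1 or Vehicle Control replicate 1 or 2 (lowest adjusted p = 0.0075).

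A ratio of 2 genes within a library is not changed by a factor applied to the whole library, such as setting totals equal. Ratios were not computed after quantile normalization, which moves genes unequally. Cpt1a stood at 0.218 to 0.383 times Acsl1 in the regular diet livers and at 1.37 to 2.18 times in the vehicle livers. Cpt1a stood at 0.553 to 2.42 times Cpt2 on regular diet and at 3.50 to 6.29 times with vehicle. Neither pair of ranges overlapped (two-sided exact permutation p = 0.00216 for each, the smallest that 5 against 6 livers can give, adjusted p = 0.00371 over 12 tests). The ratios were chosen after the values had been seen.

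**Figure D3:**
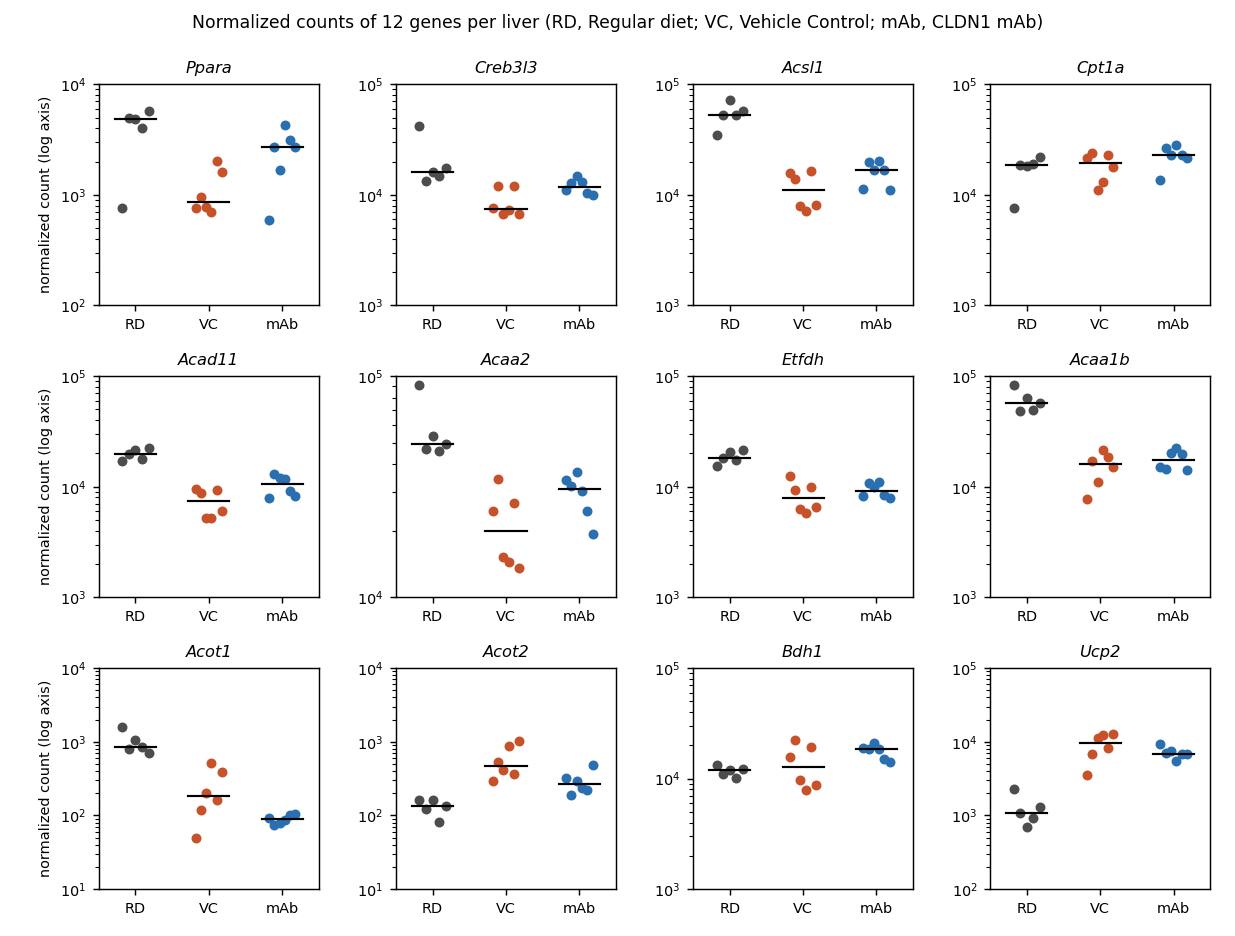
Normalized counts (y axis, logarithmic) of 12 of the genes, with 1 point per liver and a bar at the median of each group. Acsl1, Acad11, Acaa2, Etfdh, Acaa1b and Acot1 of regular diet livers lie above all others. Acot2 and Ucp2 of regular diet livers lie below all others, and Cpt1a overlaps between groups.

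Of 11 enzymes of the mitochondrial spiral, 9 were lower in vehicle livers and 2, Acadl and Hadhb, did not pass. On libraries set to the same total 4 were lower and Acadl was higher (0.47), and with quantile normalization 3 and Acadl (0.46). The 3 of 11 lower there are near the 28% of all genes. Acad11, an acyl-CoA dehydrogenase of long chains, measured 17115, 19612, 21582, 17797 and 22461 on regular diet, 5225 to 9632 (median 7414) with vehicle and 7834 to 13063 (median 10486) with antibody. Regular diet livers lay above both other groups without overlap (-1.46 ± 0.20 in vehicle, adjusted p = 9.26e-06, and -0.95 ± 0.20 in antibody livers, adjusted p = 0.000945). Acaa2, the thiolase that ends each round for medium chains, measured 91523, 46769.8, 53811, 45811 and 49247 on regular diet and 13526 to 34425 (median 19934) with vehicle (-1.46 ± 0.27, adjusted p = 0.000228). Acads, the short-chain dehydrogenase, measured 35805, 10542, 12004, 10745 and 11929.6 on regular diet and 3913 to 10295 (median 5556) with vehicle (-1.20 ± 0.31, adjusted p = 0.00345). The 4 other regular diet livers of Acads lay close above the highest vehicle liver, and without replicate 1 the fold change was -0.86 (adjusted p = 0.00492).

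The other members of the spiral gave smaller or less certain differences. Acadvl, the very-long-chain dehydrogenase, was lower (-1.15 ± 0.23), as were Eci1, an isomerase for unsaturated chains (-1.14 ± 0.28), and Decr1, the mitochondrial dienoyl-CoA reductase (-0.78 ± 0.22). The trifunctional protein joins the hydratase, the second dehydrogenase and the thiolase for long chains: its alpha subunit gene Hadha was lower (-0.86 ± 0.18, adjusted p = 0.000532), and its beta subunit gene Hadhb stood at -0.37 ± 0.16 (adjusted p = 0.0649), and was called when Vehicle Control replicate 1, 2 or 5 was left out. Hadh, the dehydrogenase for shorter hydroxyacyl chains, was lower (-0.82 ± 0.19). Without Regular diet replicate 1, Acaa2 stood at -1.27, Acadvl at -0.96, Eci1 at -0.84 and Hadh at -0.69, all 4 called. Acadm, the medium-chain dehydrogenase, was lower as deposited (-0.61 ± 0.18), with a value of the other sign under both other scalings (0.02 and 0.14, not called). Acadl, the long-chain dehydrogenase, stood at -0.16 ± 0.17 (95% interval -0.52 to 0.20).

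All 3 genes of electron transfer, which hand the electrons of the dehydrogenases to the respiratory chain, were lower in vehicle livers. Etfdh, the membrane oxidoreductase, measured 15555, 18231, 20545, 17319 and 21430.1 on regular diet, 5765 to 12375 (median 7965) with vehicle and 7889.9 to 11077 (median 9242) with antibody. No liver of either disease group reached the lowest regular diet liver (-1.20 ± 0.19, adjusted p = 5.43e-05, and -0.99 ± 0.19, adjusted p = 0.000503). Etfa and Etfb encode the subunits of the soluble carrier. Etfa measured 30958, 20244, 20981, 20385 and 19050.0 on regular diet and 6938 to 22026 (median 10665) with vehicle (-0.93 ± 0.26). Etfb measured 56561, 12721, 14983, 14368 and 14877 on regular diet and 5340.2 to 17622 (median 8308) with vehicle (-1.07 ± 0.38, adjusted p = 0.0238). Regular diet replicate 1 was the highest liver for both, and both overlapped with vehicle. Without it Etfa stood at -0.81 and was called, while Etfb stood at -0.68 and was not called (adjusted p = 0.0598), nor was it called without Vehicle Control replicate 3 or 6. Under both other scalings, Etfdh alone of the 3 was called.

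All 6 peroxisomal genes were lower in vehicle livers as deposited, and Acaa1b alone of them under both other scalings. Acaa1b, a peroxisomal thiolase, measured 83465, 48387, 62800.5, 49682 and 57058 on regular diet, 7743 to 21622 (median 16075) with vehicle and 14292 to 22233 (median 17414) with antibody. The regular diet livers stood far above both groups (-2.04 ± 0.25, adjusted p = 2.41e-06, and -1.76 ± 0.25, adjusted p = 1.70e-05). Its near copy Acaa1a was lower by less (-0.75 ± 0.22). Within each library, Acaa1b stood at 6.54 to 7.05 times Acaa1a on regular diet, at 2.30 to 3.95 times with vehicle and at 2.24 to 2.87 times with antibody. Both disease groups lay below regular diet without overlap (two-sided exact permutation p = 0.00216, adjusted p = 0.00371 for each). This ratio too was chosen after the values had been seen, so its p-values describe the separation and are no independent test of it.

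Acox2, the oxidase for branched chains and bile acid precursors, measured 12459.9, 13856, 15406, 14665 and 13444 on regular diet and 5802 to 9977 (median 7347) with vehicle (-0.90 ± 0.19). Decr2, the peroxisomal dienoyl-CoA reductase, measured 11109, 10411, 11622, 9629 and 13133 and 4149 to 9245 (median 6387) (-0.83 ± 0.21). For both, the vehicle livers lay below all regular diet livers. Ehhadh, the bifunctional enzyme, stood at -0.71 ± 0.22 and Eci2, a peroxisomal isomerase, at -0.63 ± 0.22, both called. Eci2 was not called without Regular diet replicate 1 or 5 or Vehicle Control replicate 3 (highest adjusted p = 0.0631).

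**Figure D4:**
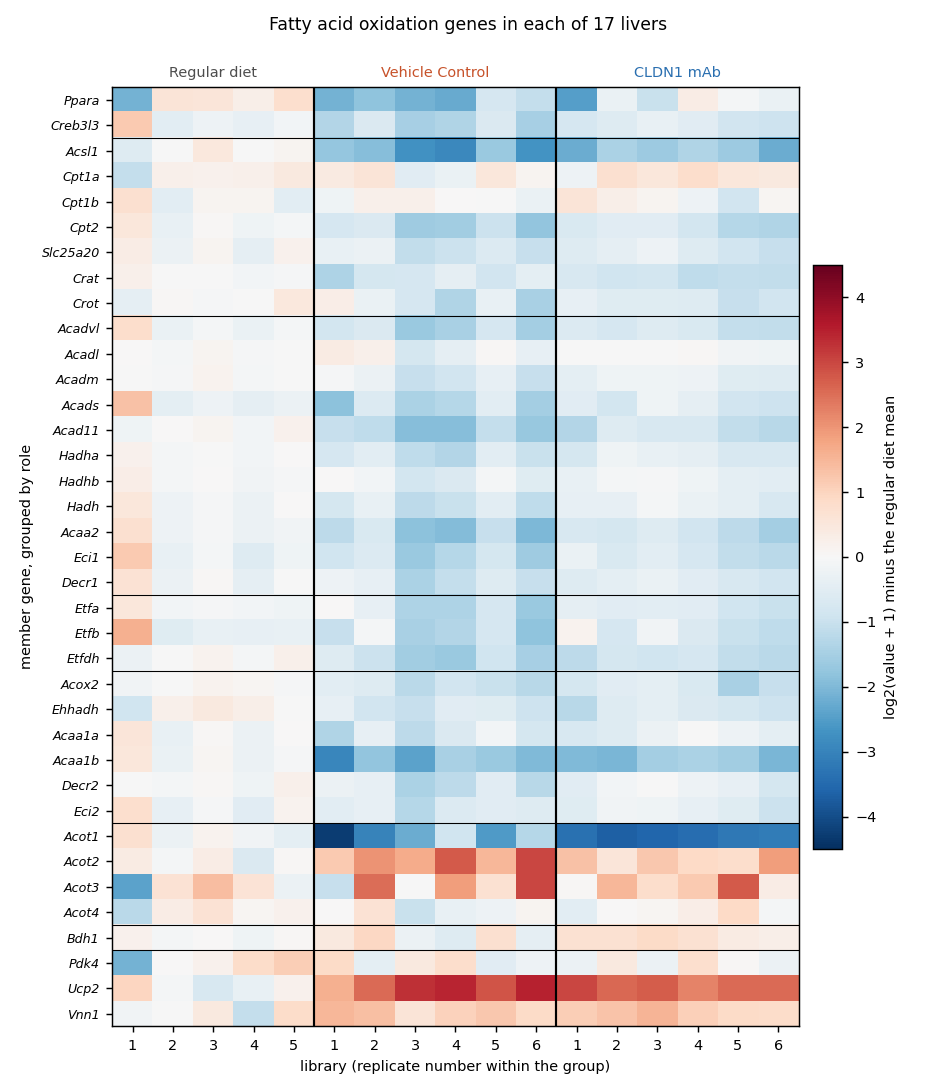
Difference of log2(value + 1) from the regular diet mean (colour) for the 37 genes (rows, grouped by role) in each liver (columns, replicate number within the group). Vehicle replicates 3, 4 and 6 are the bluest columns, Acot2, Ucp2 and Vnn1 are red in both disease groups, and Regular diet replicate 1 differs from the other 4 in many rows.

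The acyl-CoA thioesterases, which release free fatty acids from coenzyme A, went different ways. Acot1, the cytosolic one, measured 1569.8, 794, 1059, 853 and 710.4 on regular diet, 49.1 to 511 (median 184) with vehicle and 74.2 to 106 (median 89.4) with antibody. Acot2, the mitochondrial one, measured 165, 121, 162, 81.2 and 133 on regular diet, 291 to 1025 (median 469) with vehicle and 188 to 480.3 (median 267) with antibody. In every disease liver Acot1 was below and Acot2 above every regular diet liver. In vehicle livers Acot1 was lower (-2.37 ± 0.43, adjusted p = 0.000183) and Acot2 higher (2.02 ± 0.32, adjusted p = 4.73e-05). The ratio of Acot2 to Acot1 within a library was 0.0952 to 0.187 on regular diet, 1.70 to 5.93 with vehicle and 2.16 to 4.54 with antibody. With 30.9% of 100-base windows shared, the split of fragments between the pair remains uncertain.

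Acot3, a peroxisomal thioesterase, spread widely, from 19.97 to 291 on regular diet, 53.8 to 884 (median 292) with vehicle and 113 to 743 (median 221) with antibody. Acot4, another peroxisomal one, ran from 803 to 2922, 937 to 2973 (median 1743) and 1358 to 3491 (median 1940.3). Neither was called in any comparison, and exons of both overlap a joint gene model on the same strand.

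Bdh1, the mitochondrial dehydrogenase that makes and uses beta-hydroxybutyrate, was the one ketone body gene among the 37. It measured 13322, 11019, 11941, 10216 and 12284 on regular diet, 7844 to 22431 (median 12787) with vehicle and 14166 to 21121 (median 18659.8) with antibody. Vehicle livers lay on both sides of the regular diet livers, while all antibody livers lay above them. It was not called as deposited (0.14 ± 0.24 in vehicle and 0.59 ± 0.24 in antibody livers, adjusted p = 0.0624), but was called higher in both comparisons with the same total per library (0.76 and 1.03) and with quantile normalization (0.78 and 1.05).

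Of 3 PPAR-alpha targets outside beta-oxidation, 2 were higher in vehicle livers. Ucp2, an uncoupling protein homologue of the inner mitochondrial membrane that macrophages also express, measured 2258, 1084, 705, 914 and 1314 on regular diet, 3522 to 12766 (median 9712) with vehicle and 5463 to 9315 (median 6889.5) with antibody. No disease liver overlapped with regular diet (2.86 ± 0.32, adjusted p = 8.99e-07, and 2.61 ± 0.32, adjusted p = 3.79e-06). The macrophage markers given above moved the same way, and their part in this result was not tested. Vnn1, a pantetheinase that recycles the vitamin precursor of coenzyme A, measured 2184, 2402, 3294, 1161 and 4299 on regular diet, 3603 to 6892 (median 5308) with vehicle and 4276 to 7075 (median 5151) with antibody. The highest regular diet liver overlapped with the lowest of both groups (1.08 ± 0.26, adjusted p = 0.00223, and 1.11 ± 0.26, adjusted p = 0.00265). Pdk4, the kinase that turns off pyruvate dehydrogenase in fasting, measured 246, 1083, 1229.6, 1931 and 2337 on regular diet, 763 to 1980.2 (median 1192) with vehicle and 893 to 1813 (median 1016) with antibody. These ranges overlapped fully (0.15 ± 0.45, 95% interval -0.79 to 1.10).

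Levels were compared between genes per kilobase of exonic length, as normalized counts per kb (mean ± SD, with Regular diet replicate 1 included). This length joins all annotated exons of a gene, not those of the transcripts expressed here, so ranks between genes are approximate. Acaa2 was the most abundant member per kb in every group, at 37884 ± 12735 on regular diet, 14183 ± 5581 with vehicle and 19427 ± 4269 with antibody. Acaa1b came next on regular diet at 30723 ± 7244. At the other end stood Acot3 (43.4 ± 29.5), Cpt1b (59.7 ± 21.7) and Acot2 (60.2 ± 15.6), whose spreads overlap. In the order of mean levels per kb Acsl1 went from rank 11 of 37 on regular diet to 26 with vehicle and 22 with antibody, Bdh1 from 19 to 9 and 8, and Ucp2 from 34 to 21 and 28.

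In antibody livers compared with vehicle livers, no member was called higher or lower, as no gene of the 18624 was (0 called; smallest adjusted p of a member = 0.659). At an unadjusted p under 0.05, 3 members were higher (Acad11, Hadh and Decr2), against 4.32% of all genes, and 2 were lower (Acot1 and Acot2), against 3.15%. The difference was positive in 28 of 37 members, against 8248 of 18624 genes, with a median of 0.25 against -0.05. Of the 12 hepatocyte markers above 0 in every library 12 were positive (median 0.59). Negative were 9 of 10 macrophage markers (median -0.48), 6 of 6 endothelial (-0.54), 7 of 8 stellate cell and fibroblast (-0.34), 5 of 6 cholangiocyte (-0.39) and 5 of 6 T cell markers (-0.11), none of them called. Their part in the members' values was not tested. With the same total per library the median was 0.07 for the members and -0.23 for all genes.

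The ranges of the 2 groups overlapped in each of the 37 members, while 0.0644% of all genes were higher and 0.258% lower without overlap. Acad11 stood at 0.51 ± 0.19 (95% interval 0.11 to 0.91), Hadh at 0.43 ± 0.18 and Decr2 at 0.49 ± 0.20. Ppara showed the largest positive value, 1.05 ± 0.50 (95% interval -0.00167 to 2.10, adjusted p = 0.659): 4 of 6 antibody livers exceeded the highest vehicle liver, at 2003, and antibody replicate 1, at 595, was the lowest of all. Acot1 stood at -1.04 ± 0.41 and Acot2 at -0.91 ± 0.31, with an Acot2 to Acot1 ratio that did not differ detectably (1.09-fold, two-sided exact permutation p = 0.708). The 95% interval of Acaa1b ran from -0.22 to 0.76 and that of Cpt1a from -0.23 to 0.88.

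One setting changed this result. Weighting libraries by an estimated quality gave 19 members higher and 4 lower, beside 13.5% and 15% of all genes. The weights were 0.0851 for Regular diet replicate 1, 0.175 and 0.383 for Vehicle Control replicates 1 and 2 and 0.404 for CLDN1 mAb replicate 1, against 0.785 or more for all others. Within the vehicle group, replicates 3, 4 and 6 had the largest weights (1.82, 1.88 and 1.34), against 0.785 for replicate 5. These replicates were the 3 lowest vehicle livers for 23 of 37 members (62.2%), as they were for 19.4% of all genes tested. Their part in these calls was not tested. No other setting tried called a member, leaving out each single library included.

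Against Regular diet, antibody livers had 15 members lower and 3 higher, beside 14.1% and 24.8% of all genes, and 19 did not pass. The median was -0.60 over the members and 0.01 over all genes. In 13 members every antibody liver stood below every regular diet liver, against 10.4% of all genes, and in 3 above, against 18.6%. Quality weights gave 20 lower and 4 higher, beside 27.8% and 33.1%. Of the 12 hepatocyte markers 6 were lower (median -0.94), while 9 of 10 macrophage (3.74), 6 of 6 cholangiocyte (3.74), 7 of 8 stellate cell and fibroblast (2.05) and 5 of 6 T cell markers (2.25) were higher. Of 6 endothelial markers 3 were lower (-1.17). Their part in the result was not tested. This comparison shares its regular diet libraries with that of vehicle livers. Among the lower genes Acot1 had the largest difference (-3.41 ± 0.43, adjusted p = 6.07e-06), ahead of Acaa1b and Acsl1, and the genes higher were again Acot2 (1.11 ± 0.32), Ucp2 and Vnn1. Ppara (-0.64 ± 0.52) and Creb3l3 (-0.66 ± 0.26) did not pass (adjusted p = 0.357 and 0.0528). Without Regular diet replicate 1, Ppara was called lower (-1.18, adjusted p = 0.0328), and so was Crot. Leaving out Regular diet replicate 2 or 4 or CLDN1 mAb replicate 3 took Creb3l3 past the threshold.

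Some of these 15 calls were close to the threshold. Hadha lost its call without CLDN1 mAb replicate 1, 5 or 6 (highest adjusted p = 0.0553), Eci1 without any of 7 libraries (0.0903) and Decr1 without any of 8 (0.105), Regular diet replicate 1 among them for both. With the same total per library 9 members were lower and 6 higher, beside 4.46% and 37.9% of all genes, and with quantile normalization 6 and 5, beside 20% and 19.1%. Acsl1, Cpt2, Crat, Etfdh, Acaa1b and Acot1 were called lower, and Ucp2 and Vnn1 higher, under all 3 scalings. The share of all genes so called was not computed.

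**Figure D5:**
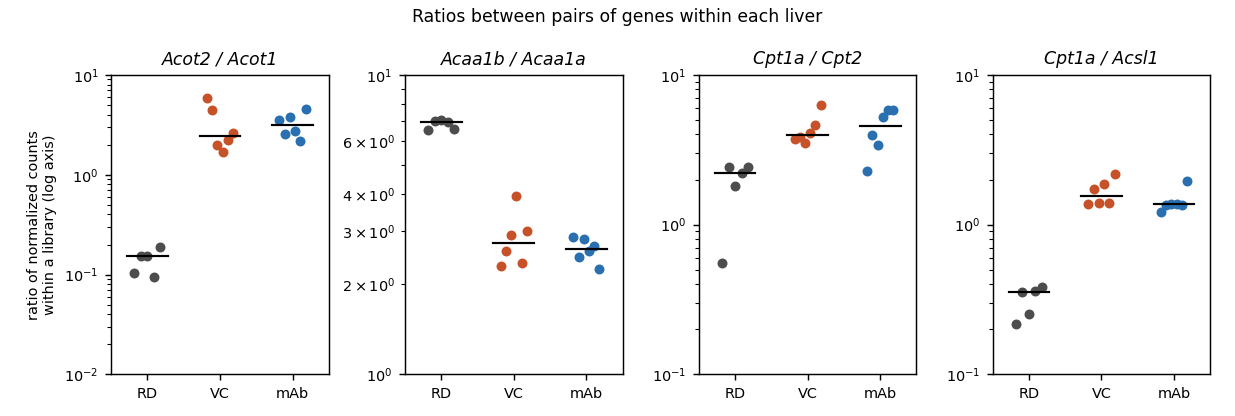
Ratios of normalized counts within a library (y axis, logarithmic) for 4 gene pairs, with 1 point per liver and a bar at the group median. Acot2 to Acot1 rises from at most 0.187 on regular diet to at least 1.70 in both disease groups, and Acaa1b to Acaa1a falls from at least 6.54 to at most 3.95.

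A further 107 genes of the same pathways were listed, of which 106 could be tested. In vehicle livers 61 were lower and 17 higher than on regular diet, beside 20.7% and 29.8% of all genes, with a median of -0.86. Setting the same total per library made these 41 and 25, beside 6.79% and 50.3%, and quantile normalization 55 and 20, beside 28% and 23.9%.

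Of 19 other peroxisomal genes tested, 14 were lower and 1 higher, beside 20.7% and 29.8% of all genes. The same shares stand beside the counts of the next lists. Hacl1, a lyase that removes single carbons from hydroxylated chains, had the smallest p (-3.27 ± 0.24), followed by the import receptor Pex5 (-1.20 ± 0.16) and Hsd17b4, the multifunctional enzyme for branched chains (-1.23 ± 0.17). Of 19 other mitochondrial genes, 14 were lower and 2 higher. Acot9, a mitochondrial thioesterase, was higher (2.14 ± 0.15), while Acacb, which makes the malonyl-CoA that holds back CPT1, was lower (-3.14 ± 0.26), as was Ivd, the isovaleryl-CoA dehydrogenase (-1.63 ± 0.19). Acsl6, Acss1 and Acss2 had the smallest p of 14 synthetases and transport proteins, of which 11 were lower and 2 higher. Acss2, the cytosolic acetyl-CoA synthetase, was lower (-2.37 ± 0.26), Acss1, its mitochondrial counterpart, was higher (3.86 ± 0.45), and Acsl6 was close to the filter (28.5 ± 14.6 on regular diet).

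Of 10 other ketone body genes, 5 were lower and 4 higher, beside 20.7% and 29.8% of all genes. Oxct1, which lets tissues other than hepatocytes use ketone bodies, was higher (2.82 ± 0.33, 1954 ± 941 against 258 ± 89.2), and so was Hmgcll1, at low counts (50.3 ± 14.2 against 3.94 ± 3.16). Of 24 other PPAR-alpha targets, 11 were lower and 7 higher, the latter a share near the 29.8% of all genes. The higher ones included Cd36, a fatty acid uptake receptor that macrophages also carry (2.74 ± 0.25), Fgf21, a hepatokine of fasting (4.52 ± 0.44), and Cyp4a31 (2.54 ± 0.26), whereas Cyp4a12a, another omega-hydroxylase, was lower (-2.90 ± 0.37). Cyp4a genes are near copies of each other, and their split is uncertain.

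Among 20 regulators and cofactors 6 were lower, 1 was higher and 13 did not pass, beside 20.7% lower and 29.8% higher of all genes. The number lower was not far from that share. Klf15, a fasting regulator of amino acid and lipid use, was lower (-1.90 ± 0.29), as were Rxra, the partner of PPAR-alpha (-1.17 ± 0.21), and the mitochondrial deacetylase Sirt3 (-1.17 ± 0.24). Pparg, the adipogenic relative of PPAR-alpha, was the higher one (0.70 ± 0.19). In antibody against vehicle livers 0 of the 106 were called, with 26 higher and 3 lower at an unadjusted p under 0.05, beside 4.32% and 3.15% of all genes. The hepatocyte markers given above were positive too, and their part was not tested. The smallest p values there belonged to Acad10 (0.62 ± 0.16), Acss2 (0.91 ± 0.25) and Slc16a6, a ketone body exporter of liver (-0.70 ± 0.21), with adjusted p = 0.659 for each. Against regular diet 45 of the 106 were lower and 17 higher in antibody livers, beside 14.1% and 24.8% of all genes, with Hacl1 (-3.00 ± 0.24) and Cyp4a12a (-2.92 ± 0.37) close to their values in vehicle livers.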

How the data were processed

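Liver RNA was measured by sequencing in 17 libraries, and groups came from the sample titles. The deposited signal values are counts normalized between libraries by cuffnorm, per the name of the authors' table, made with Cufflinks 2.2.1 on mm10 per the submitters' processing notes. Not given in the sources used here are aligner, annotation, strandedness, handling of shared fragments and scaling option. These are not raw counts, and their depth was estimated from the step between low values. Gene symbols matched 99.7% of IDs.

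Genes with at least 10 in 5 or more libraries were kept (18624). Values were taken as log2(value + 1), which understates changes of low genes, and fitted with limma-trend (limma 3.58.1, R 4.3.3), group as the only term, two-sided, Benjamini-Hochberg over all genes. Tested on simulated data for antibody against vehicle (18624 genes), the fit recovered 14.9% of 67 changes of 1.5-fold, 38.8% of 67 of 2-fold and 87.9% of 66 of 4-fold, with 8 false calls. Single ratios were compared by exact permutation tests. All 37 members are accounted for: values per library are given for called members with the largest changes of each role, for roles of 3 or fewer and for members against their role's direction, and for other lists the 3 smallest p values are named, except genes not reported here. Members, lists and ratios were chosen with earlier results of these data known. Protein sequences were not used here, so copies were compared through open reading frames of GENCODE M21 transcripts. Alternatives covered pseudocount, filter, scaling, weights, block, library codes and single libraries left out, and, after the data had been seen, removal of a length trend and of 2 libraries together.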

Additional observations from a re-analysis of the deposited data

Results flagged for a closer look

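In 111 groups of 5 or 6 livers (37 genes, 3 groups), 11 had a highest or lowest liver set apart from the rest by Dixon's test at 95%, where chance gives about 1 in 20. Of these, 9 were Regular diet replicate 1. It was the highest liver for Creb3l3 (42293, next 17455), Acadvl (55470, next 30610), Acads (35805, next 12004), Hadh (24780, next 17302), Acaa2 (91523, next 53811), Eci1 (14659, next 6194), Etfa (30958, next 20981) and Etfb (56561, next 14983), and the lowest for Cpt1a (7596, next 18182). Vehicle Control replicate 3 was lowest for Eci2 (4413, next 6973), and CLDN1 mAb replicate 5 was highest for Acot3 (743, next 314).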

How the results depend on the processing

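In vehicle against regular diet livers 28 members were called. Leaving out each library in turn gave 26 to 30, and the pseudocount, the filter, a fit of 2 groups, robust variances, weights and the length trend gave 27 to 32. Same total per library and quantile normalization each gave 17. In antibody against regular diet livers 18 were called, 15 to 19 with single libraries left out, 15 with the same total, 11 with quantile normalization, 24 with array quality weights, 21 in a fit of 2 groups and 16 with no filter. In antibody against vehicle livers 0 were called, 0 with any library left out, and 23 with array quality weights.

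Called values that changed sign, and uncalled ones that were called with the other sign, did so under scaling only. Uncalled values also changed sign for vehicle against regular diet under array weights (4), the block (1), both first replicates left out (3) and single libraries left out (10). With the same total per library, vehicle against regular diet gave 0.62 for Cpt1b, 0.47 for Acadl and 0.018 for Acadm. With quantile normalization it gave 0.46 for Acadl, 0.14 for Acadm and 0.013 for Ehhadh. Antibody against regular diet gave 0.37 for Acadl with the same total, and 0.36 for Acadl, 0.019 for Hadha and 0.049 for Rxra with quantile normalization. The cause was not tested beyond the shift of all genes.

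Replicate numbers did not pair the libraries: of 16 same-numbered pairs 5 correlated above 0.1 (range -0.34 to 0.66), and 2 of the livers correlated best with their own number. A replicate block gave 27 members for vehicle and 17 for antibody against regular diet, and 0 for antibody against vehicle.

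Groups of 5 or 6 libraries and normalized values without raw counts limit precision, and a miss of the threshold does not show that a member did not differ. Absolute levels rest on the deposited scaling.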

Other observations

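The 6 vehicle livers did not lie evenly. Replicates 3, 4 and 6 were the 3 lowest of the group for 23 of 37 members (62.2%), as they were for 19.4% of all genes tested, and the 3 highest for 3 members (8.11%) against 27.1% of all genes. These 3 livers also had the lowest hepatocyte marker medians of the group (12 markers above 0 in every library; -1.88, -1.82 and -2.45, against -1.15 to -0.74) and the highest macrophage marker medians (4.74, 4.61 and 4.46, against 2.96 to 3.71). Acaa2, for example, stood at 13526 to 15271 in these 3 and at 24596 to 34425 in the other 3, and Bdh1 at 7844 to 9803 and 15771 to 22431. Ucp2 was in the opposite order, at 11232 to 12766 and 3522 to 8192, as was Acot1, at 204 to 511 and 49.1 to 164. Vehicle Control replicates 3, 4 and 6 also had the lowest deposited totals of the group (30.8 M, 31.3 M and 29.7 M, against 37.3 M to 42.1 M). The split was seen in the data before it was counted, so the shares above describe it and do not test it. It follows no label, and the part of scaling or cell makeup in it was not tested.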
